A study of Mus musculus with 12 samples.

Results

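Lox, Dpt, Prelp, Fbln1 and Itih5 code for secreted proteins that organise the extracellular matrix, and their RNA was read on mouse expression arrays of cultured aortic endothelial cells with 4 combinations of Ets1 and Ets2 alleles. Every probe set that the platform annotation assigns to exactly 1 of these symbols was taken, which gave 5 of 11015 genes and 9 of 20523 probe sets: 2 for Lox, 1 for Dpt, 2 for Prelp, 3 for Fbln1 and 1 for Itih5. The 5 genes were chosen by their measured log2 values on these same arrays, which stood apart between groups, so contrasts known to have led to the choice are described here without a test. Adjusted p-values are given for the members only in comparisons with the WT arrays, and there not for Lox and Prelp in DKO or for Itih5 in Ets2KO. Which contrasts singled out Dpt and Fbln1 is not known here, and all comparisons share arrays with those that chose a gene, so these p-values are not independent of the choice.

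Lox, lysyl oxidase, oxidises lysines of collagen and elastin so that the fibres cross-link. Dpt (dermatopontin) and Prelp, a small leucine-rich repeat protein that binds heparan sulphate and collagen, link fibrils to cells and to other matrix proteins. Fbln1 (fibulin-1) associates with elastic fibres and fibronectin, and Itih5 is an inter-alpha-trypsin inhibitor heavy chain, a family whose members attach to hyaluronan. Ets1 and Ets2 are transcription factors of the ETS family, which binds DNA around a GGAA core and takes part in endothelial gene regulation. In the vessel wall such matrix proteins are made largely by fibroblasts and smooth muscle cells, and endothelial cells lie on the basement membrane side of that matrix.

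The cells came from aortas of mice aged 4 weeks and were infected in culture with lentivirus. The WT group was Ets1+/+; Ets2+/+ with lentiviral-egfp, the Ets1KO group was Ets1-/-; Ets2fl/fl with lentiviral-egfp, the Ets2KO group was Ets1+/+; Ets2fl/fl with lentiviral-egfp-Cre, and the DKO group was Ets1-/-; Ets2fl/fl with lentiviral-egfp-Cre. Each group has 3 deposited columns, but in 20521 of 20523 probe sets the last DKO column is the average of its group's other columns, so 11 arrays were used and DKO has n = 2. All 4 groups carried a lentivirus, Cre was delivered only where Ets2 was to be deleted so that the enzyme and the deletion cannot be told apart, and Ets2 was floxed but not deleted in Ets1KO while WT carried no floxed allele. The labels call the samples of a group biological replicates and do not say whether each came from separate animals, so p-values measure only the spread between these samples.

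The upstream sequences of Dpt, Itih5 and Fbln1 are shown because these 3 genes had their lowest mean levels in the groups labelled Ets1-/-, and because they differ in how many ETS cores (GGAA, or TTCC when the core lies on the other strand) the window holds. Capitals mark every match to GGAA or TTCC. Each sequence is the 250 bases before the RefSeq start site, on the gene's own strand, build GRCm38.p6: Dpt at chr1:164796413-164796662 (plus strand), Itih5 at chr2:10153293-10153542 (plus strand) and Fbln1 at chr15:85205699-85205948 (plus strand).
Dpt: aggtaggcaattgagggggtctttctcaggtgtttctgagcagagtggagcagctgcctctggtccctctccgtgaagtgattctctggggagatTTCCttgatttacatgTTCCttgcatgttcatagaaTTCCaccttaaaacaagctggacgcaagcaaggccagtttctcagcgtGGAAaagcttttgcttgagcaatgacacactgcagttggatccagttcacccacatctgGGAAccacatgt
Itih5: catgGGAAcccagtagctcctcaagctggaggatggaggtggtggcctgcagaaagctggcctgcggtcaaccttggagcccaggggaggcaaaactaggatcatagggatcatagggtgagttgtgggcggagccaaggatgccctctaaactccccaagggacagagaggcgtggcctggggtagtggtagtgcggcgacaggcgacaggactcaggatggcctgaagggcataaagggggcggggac
Fbln1: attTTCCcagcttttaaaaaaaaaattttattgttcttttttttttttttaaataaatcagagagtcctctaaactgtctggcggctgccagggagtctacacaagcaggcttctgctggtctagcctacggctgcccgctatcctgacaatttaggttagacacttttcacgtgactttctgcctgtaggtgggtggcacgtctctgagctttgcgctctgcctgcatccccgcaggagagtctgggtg
Dpt held 5 matches, and 82% of the 32851 mouse promoter windows of the same length held fewer. Itih5 and Fbln1 held 1 match each. The Prelp window held 2 and starts inside the annotated gene, which spans more than this transcript. At least 1 match was present in 93.4% of all windows, and the longer motif CCGGAA, present in 12% of windows on either strand, was in none of the 4 members' windows. RefSeq windows matched 4 of the 5 members, and Lox had none. A match is a description of these letters and not a measured binding site.

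The deposited values are log2 intensities. The array medians lay at 8.29 and 8.30 on the 2 DKO arrays and between 9.05 and 9.15 on the other 9, so levels are given below as log2 minus the array's own median ("relative log2"), with the difference in deposited log2 values where it matters. Over all probe sets the median difference of DKO against WT was 0.16 on the relative scale and -0.63 as deposited. Ets1 itself, as deposited log2, lay between 9.84 and 10.26 in WT and between 8.31 and 9.17 in Ets1KO, but at 10.02 and 10.29 on the arrays labelled DKO, so the measured Ets1 level goes against that label, and every DKO statement below refers to the arrays labelled DKO. Ets2, as deposited, overlapped between Ets2KO (9.35 to 10.13) and WT (9.72 to 10.70). On the arrays labelled DKO it was 11.02, the highest of the 11 arrays, and 9.63, so array 1 goes against the label for Ets2 too. Relative to its own lower median (8.29), array 2 of DKO also lay above all 3 Ets2KO arrays and within the WT range. On that scale array 2 does not bear out the label for Ets2 either. The sources used here do not say whether the probes lie inside the deleted sequence. Xist was low (deposited log2 7.26 to 7.50) and the Y-linked Eif2s3y high (9.30 to 10.23) on WT array 1 and all 3 Ets2KO arrays, and Xist was high (11.45 to 13.5) on the other arrays. By these markers sex and genotype cannot be told apart in Ets2KO against Ets1KO or in DKO against Ets2KO, for any gene below. They are partly mixed in comparisons with WT and in the difference between the changes with Cre. Of 12 endothelial markers only 3 (Kdr, Flt1 and Egfl7) were measured, and their mean lay below the array median on all 11 arrays (-1.71 to -0.77 relative log2). Of 10 fibroblast markers 6 were measured, with array means of 0.84 to 3.11, led by Col1a1, Col1a2, Col3a1 and Pdgfra. The measured Dcn and Lum lay lower, with group means from -1.77 to 0.01 and from -3.31 to -2.29. In bulk RNA, fewer cells of a type and less RNA per cell cannot be told apart.

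**Figure D1:**
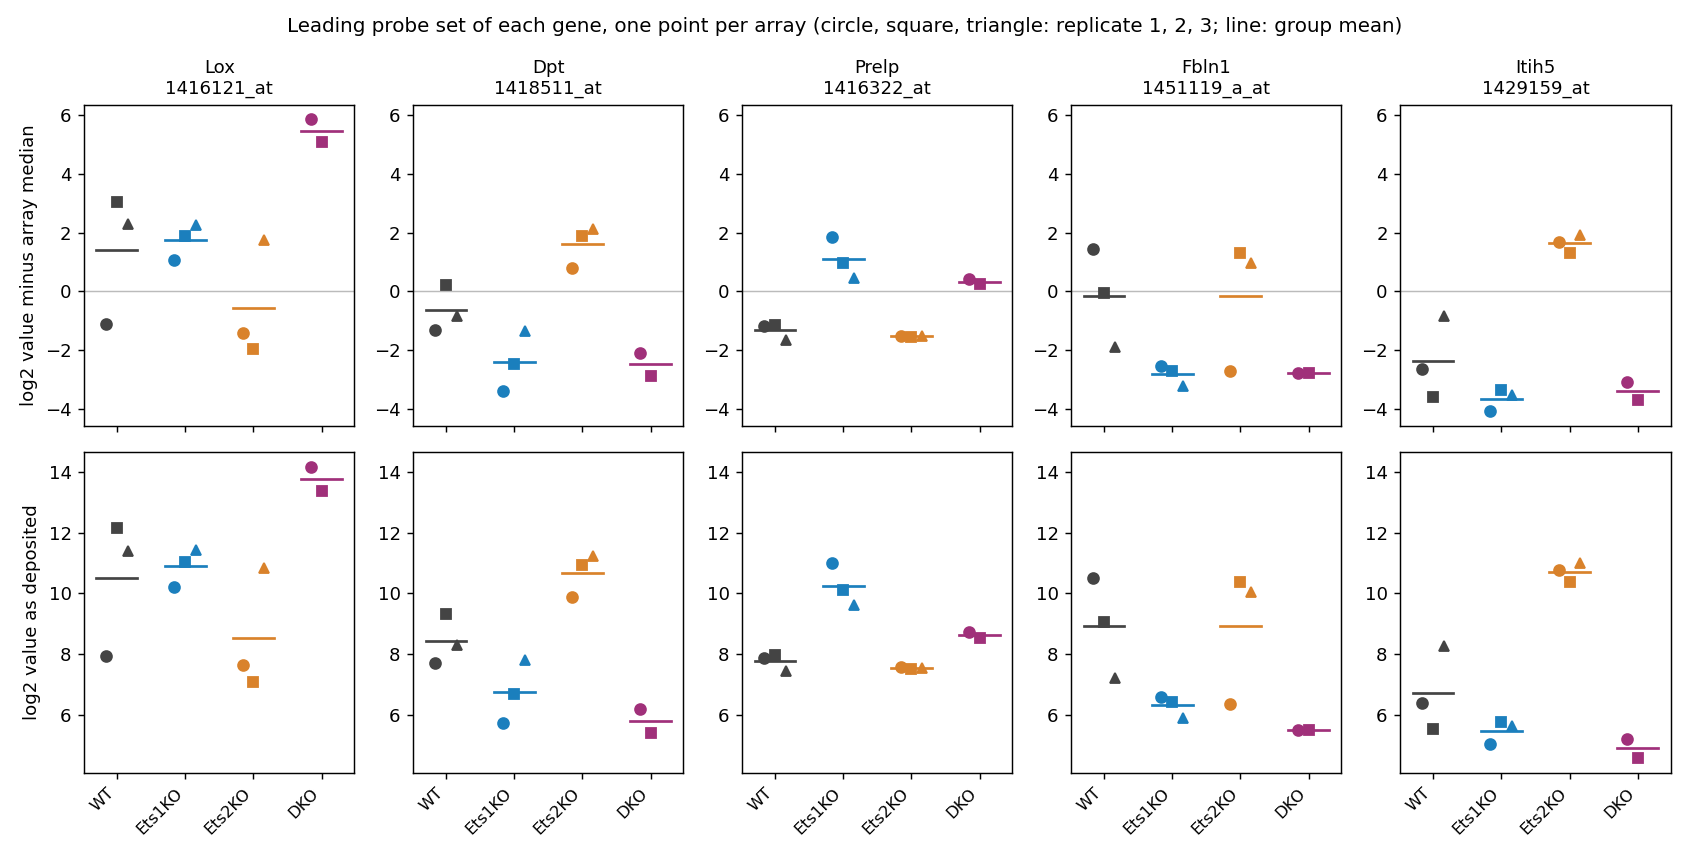
Log2 level of the brightest probe set of each gene, relative to array medians (upper row, y axis) and as deposited (lower row), on each of the 11 arrays by group (x axis), with points for arrays and lines for group means. Lox is high on both DKO arrays, Itih5 and Dpt are high on the Ets2KO arrays, and Prelp is high on the Ets1KO and DKO arrays.

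Lox stood highest on the DKO arrays and varied widely elsewhere. Its brighter probe set, 1416121_at, read -1.11, 3.03 and 2.29 relative log2 on the 3 WT arrays and 1.07, 1.90 and 2.27 on the Ets1KO arrays. It read -1.43, -1.97 and 1.75 in Ets2KO and 5.86 and 5.08 in DKO. Both DKO arrays thus lay above every other array, while WT, Ets1KO and Ets2KO overlapped, with the 3 low values on WT array 1 and Ets2KO arrays 1 and 2. These 3 arrays are among the 4 that were low for Xist, and whether sex bears on the Lox level was not tested. The order of the group means was Ets2KO at -0.55 ± 2.01 (SD, n = 3), WT at 1.40 ± 2.20 (n = 3), Ets1KO at 1.75 ± 0.61 (n = 3) and DKO at 5.47 ± 0.55 (n = 2), and only DKO did not overlap its neighbour.

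Lox in DKO was 4.06 (SE 1.31) relative log2 units above WT, a 16.7-fold difference, and 3.27 above WT as deposited. It stood 3.72 above Ets1KO and 6.02 (SE 1.31) above Ets2KO, the latter being the 4th highest difference of all 20523 probe sets in that contrast. These contrasts chose the gene and are descriptions. The difference of Ets1KO from WT was 0.34 (SE 1.17, limma adjusted p 0.955), and without WT array 1 it turned to -0.91. Ets2KO differed from WT by -1.96 (SE 1.17, limma adjusted p 0.374). The change with Cre on the Ets1-null background exceeded that on the Ets1+/+ background by 5.68 (SE 1.76) relative log2 units. The other probe set, 1448228_at, followed closely, with a root mean square difference of 0.339 over the 11 arrays after each profile was centred.

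The within-group spread of Lox was large for the platform: the residual SD of 1416121_at was 1.64, above that of 99.2% of probe sets, where the median was 0.281. Without WT array 1 the DKO difference from WT fell to 2.81, the lowest value over the arrays left out in turn, and the highest was 4.87. On the relative scale the fibroblast marker mean moved with Lox in DKO, at 2.44 and 3.11 against 0.84 to 1.88 on all other arrays. The median difference of these 6 markers from WT was 1.17 relative and 0.37 as deposited. By relative group mean all were highest in DKO except Pdgfra, at 3.34 there and 4.00 in Ets2KO. The part of these markers in the Lox result was not tested. The genes with the profile most like Lox over the 11 arrays were Prss23, Hk2 and Dkk3, with root mean square differences of 0.886, 1.04 and 1.13 relative log2 units.

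Dpt was highest in Ets2KO and lowest in the groups labelled Ets1-/-. Its only probe set, 1418511_at, read -1.32, 0.21 and -0.82 relative log2 in WT and -3.39, -2.46 and -1.34 in Ets1KO. It read 0.80, 1.88 and 2.13 in Ets2KO and -2.10 and -2.87 in DKO. All 3 Ets2KO arrays lay above all others, and the Ets1KO and DKO arrays interleaved. The highest Ets1KO array lay just under the lowest WT array on the relative scale and above it as deposited (7.81 against 7.72 deposited log2). The group means were -2.49 ± 0.54 in DKO (SD, n = 2), -2.40 ± 1.03 in Ets1KO (n = 3), -0.65 ± 0.78 in WT (n = 3) and 1.61 ± 0.71 in Ets2KO (n = 3). In Ets1KO 1.34%, 5.59% and 23.8% of the probe sets on the array read as low as Dpt or lower, and in DKO 8.38% and 2.88%.

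Against WT, Dpt differed by 2.25 (SE 0.59) in Ets2KO, with no overlap and a limma adjusted p of 0.0919. It differed by -1.75 (SE 0.59, limma adjusted p 0.461) in Ets1KO and by -1.84 (SE 0.66, limma adjusted p 0.0544) in DKO. As deposited, the DKO difference was -2.63 with a limma adjusted p of 0.00967, so the call depends on the scale. With quantile normalization the adjusted p was 0.0499, with Ets1KO array 1 or 3 left out it was 0.0396 or 0.0373, and without DKO array 2 it was 0.247. The relative difference ran from -2.22 to -1.41 over the arrays left out. DKO differed from Ets2KO by -4.09 (SE 0.66), a 17-fold lower level, and Ets2KO lay 4.00 above Ets1KO, both as descriptions. Txnip, Rac3 and Cebpa had the profiles most like Dpt, with root mean square differences of 1.01, 1.03 and 1.04.

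Prelp was higher in both groups labelled Ets1-/- than in the other two. Its brighter probe set, 1416322_at, read -1.17, -1.14 and -1.66 relative log2 in WT and 1.86, 0.98 and 0.47 in Ets1KO. It read -1.51, -1.55 and -1.52 in Ets2KO and 0.42 and 0.24 in DKO. Every Ets1KO and DKO array lay above every WT and Ets2KO array. The group means were -1.53 ± 0.02 in Ets2KO (SD, n = 3), -1.33 ± 0.29 in WT (n = 3), 0.33 ± 0.13 in DKO (n = 2) and 1.10 ± 0.70 in Ets1KO (n = 3), and WT and Ets2KO overlapped.

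Prelp in Ets1KO exceeded WT by 2.43 (SE 0.31) at 1416322_at, a 5.39-fold difference with a limma adjusted p of 0.0914. At 1416321_s_at the difference was 2.91 (SE 0.54, limma adjusted p 0.223). Left out in turn, WT array 3, Ets1KO array 1 and Ets1KO array 3 each brought the adjusted p of 1416322_at below 0.05 (0.0448, 0.0165 and 0.0427), and without WT array 1 it was 0.399. The difference stayed between 2.05 and 2.75 over all arrays left out. Ets2KO differed from WT by -0.20 (SE 0.31, limma adjusted p 0.753). DKO exceeded WT by 1.65 (SE 0.34) at 1416322_at and by 3.73 (SE 0.61) at 1416321_s_at, and by 0.86 and 2.93 as deposited, all as descriptions.

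The probe sets of Prelp parted in the order of the groups that were high. The suffix of 1416321_s_at marks a probe set that can also match other transcripts. It read 2.36, 0.74 and 0.42 relative log2 in Ets1KO and 2.55 and 1.42 in DKO. These overlapped, whereas at 1416322_at both DKO arrays lay just under the lowest Ets1KO array on the relative scale. As deposited they lay farther below it (at most 8.72 against 9.62). DKO differed from Ets1KO by -0.77 at 1416322_at and by 0.81 at 1416321_s_at. As deposited these differences were -1.62, without overlap, and -0.03, with overlap. No order of DKO and Ets1KO thus holds for both probe sets of the gene. The mesothelial markers Msln and Krt19, the 2 measured of 5, had means of 2.73 to 3.03 in Ets1KO and 1.73 and 1.91 in DKO. These means were -1.26 to -0.27 in Ets2KO and -2.56, -0.35 and 2.05 in WT. The markers parted within groups. Krt19 read 3.60, 2.51 and 1.66 in Ets2KO, 1.88 and 5.28 in DKO and -1.14, 2.52 and 3.12 in WT. Msln read -4.14, -4.64 and -4.18 in Ets2KO, 1.58 and -1.47 in DKO and -3.98, -3.22 and 0.97 in WT. The part of both in the Prelp result was not tested. WT array 3 was high for these markers and had the lowest WT value of 1416322_at. Nexn, Pkp4 and Rhoj were most like Prelp, with root mean square differences of 0.385, 0.507 and 0.580.

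**Figure D2:**
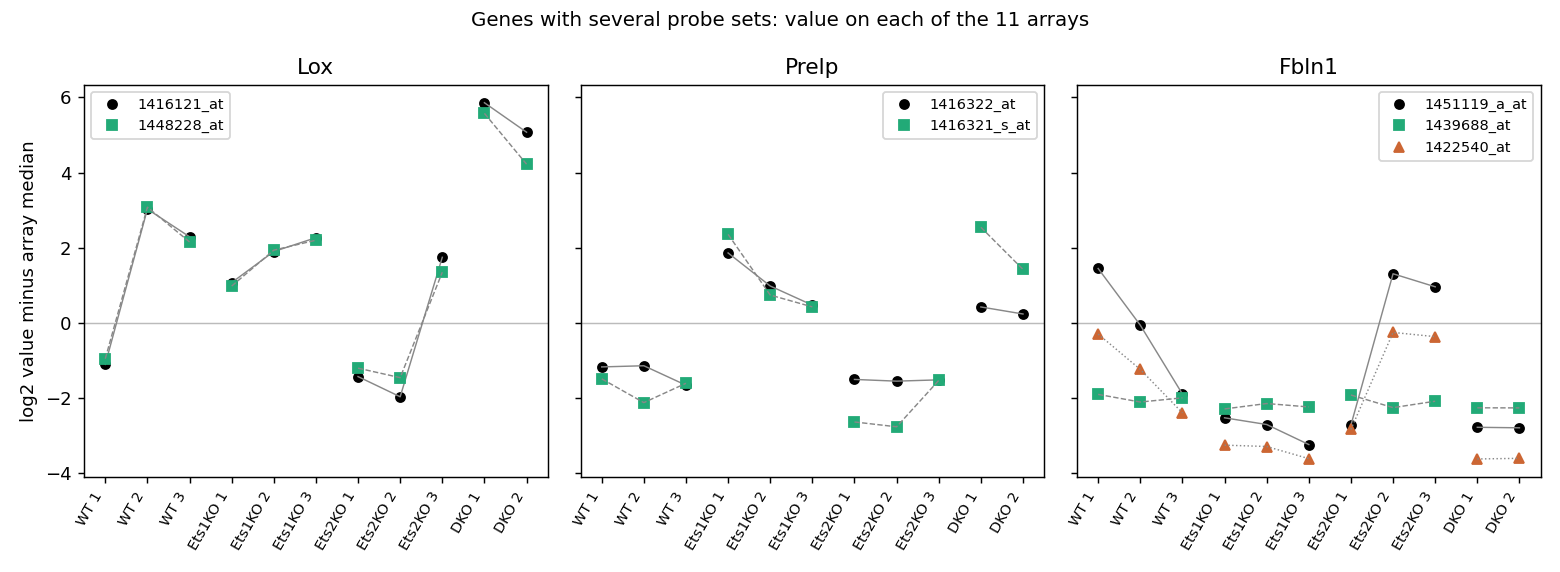
Relative log2 level (y axis) on each of the 11 arrays (x axis) for every probe set of the 3 genes with more than 1, a marker per probe set, with lines that only join arrays of a group. The Lox probe sets run together, the Prelp probe sets differ in DKO against Ets1KO, and Fbln1 1439688_at stays between -2.29 and -1.90 on all arrays.

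Fbln1 was low on all 5 arrays labelled Ets1-/- and spread widely on the others. Its brightest probe set, 1451119_a_at, read 1.45, -0.06 and -1.89 relative log2 in WT and -2.53, -2.71 and -3.24 in Ets1KO. It read -2.72, 1.31 and 0.96 in Ets2KO and -2.78 and -2.79 in DKO. Neither group labelled Ets1-/- overlapped WT, but Ets2KO array 1 lay among them, apart from the other Ets2KO arrays. The group means were -2.82 ± 0.37 in Ets1KO (SD, n = 3), -2.79 ± 0.01 in DKO (n = 2), -0.17 ± 1.67 in WT (n = 3) and -0.15 ± 2.23 in Ets2KO (n = 3), and only the step to WT had no overlap. Only 1.32% to 5.12% of the probe sets on an Ets1KO or DKO array read as low as this one or lower. The size of the difference and the small DKO spread thus rest on values at the dim end of the array.

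Against WT, 1451119_a_at differed by -2.65 (SE 1.07) in Ets1KO, with a limma adjusted p of 0.524. In DKO it differed by -2.62 (SE 1.20, limma adjusted p 0.119), and as deposited by -3.41 (limma adjusted p 0.0397). Without Ets2KO array 1, which is in neither group but adds to the shared spread, the relative DKO comparison had an adjusted p of 0.0348, and without WT array 1 it was -1.81 with an adjusted p of 0.295. In Ets2KO the difference was 0.02 (SE 1.07, limma adjusted p 0.995), -0.0035 as deposited and between -0.84 and 1.30 over the arrays left out, so no direction holds there.

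The probe set 1422540_at gave the same order, with values of -3.26, -3.29 and -3.62 in Ets1KO and -3.62 and -3.61 in DKO against -0.30, -1.24 and -2.40 in WT. The Ets1KO and DKO values were dimmer still, with 0.44% to 1.66% of the probe sets on the array as low or lower. This probe set is the subject of the next call. It was the only tested member probe set that passed in DKO against WT on the relative scale, at -2.30 (SE 0.78, limma adjusted p 0.0447). That call was lost without WT array 1 or 2, with any Ets1KO array or either DKO array left out, with only the 2 groups in the fit, and with the replicate number as a block (-2.39, limma adjusted p 0.0761), with adjusted p up to 0.143 and a difference of -2.85 to -1.80. The probe set 1439688_at hardly varied, from -2.29 to -1.90 over all arrays, and its DKO difference was -0.26 relative (SE 0.14, limma adjusted p 0.179). As deposited it was -1.05 (limma adjusted p 0.000277), on a scale where the median of all probe sets was -0.63. Serpinf1, Lgals3bp and Eng were most like the brightest Fbln1 probe set, with root mean square differences of 0.569, 0.856 and 0.992.

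Itih5 stood apart in Ets2KO. Its only probe set, 1429159_at, read -2.65, -3.59 and -0.83 relative log2 in WT and -4.08, -3.36 and -3.52 in Ets1KO. It read 1.70, 1.31 and 1.93 in Ets2KO and -3.10 and -3.70 in DKO. The 3 Ets2KO arrays lay above all others, and the other 3 groups overlapped, with WT array 3 the highest of them. The group means were -3.65 ± 0.38 in Ets1KO (SD, n = 3), -3.40 ± 0.42 in DKO (n = 2), -2.36 ± 1.40 in WT (n = 3) and 1.65 ± 0.31 in Ets2KO (n = 3). Only 0.51% to 1.32% of the probe sets on an Ets1KO or DKO array read as low as Itih5 or lower. On WT arrays 1 and 2 these shares were 3.68% and 0.52%. Fold sizes against these groups thus rest on values at the dim end of the array.

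Itih5 in Ets2KO was 4.00 (SE 0.58) above WT, a 16-fold difference and the 10th highest of all probe sets, and it ranged from 3.39 to 4.77 over the arrays left out. It was 5.30 above Ets1KO, and DKO differed from Ets2KO by -5.04 (SE 0.65), the 12th lowest difference of that contrast. These are descriptions. Ets1KO differed from WT by -1.30 (SE 0.58, limma adjusted p 0.559). DKO differed from WT by -1.04 (SE 0.65, limma adjusted p 0.243), and as deposited by -1.84 (limma adjusted p 0.0438). Without WT array 3 these relative differences shrank to -0.54 in Ets1KO and -0.28 in DKO, and without WT array 2 they were -1.92 and -1.66. The change with Cre on the Ets1-null background minus that on the Ets1+/+ background was -3.74 (SE 0.88).

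The adipocyte markers Adipoq, Fabp4, Lpl and Pparg, the 4 measured of 6, had array means of 1.08, 3.32 and 4.13 in Ets2KO and -3.20 to -2.86 in Ets1KO, so they were high and low where Itih5 and Dpt were. They were 2.88 on WT array 3, which had the highest WT level of Itih5 but not of Dpt, and -1.24 and -2.06 on the other WT arrays. In DKO they were 0.63 and -2.26, while Itih5 and Dpt were low on both. The part of these cells in the Itih5 and Dpt results was not tested. Cebpa, Mapk13 and Trabd2b were most like Itih5, with root mean square differences of 1.29, 1.29 and 1.32.

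**Figure D3:**
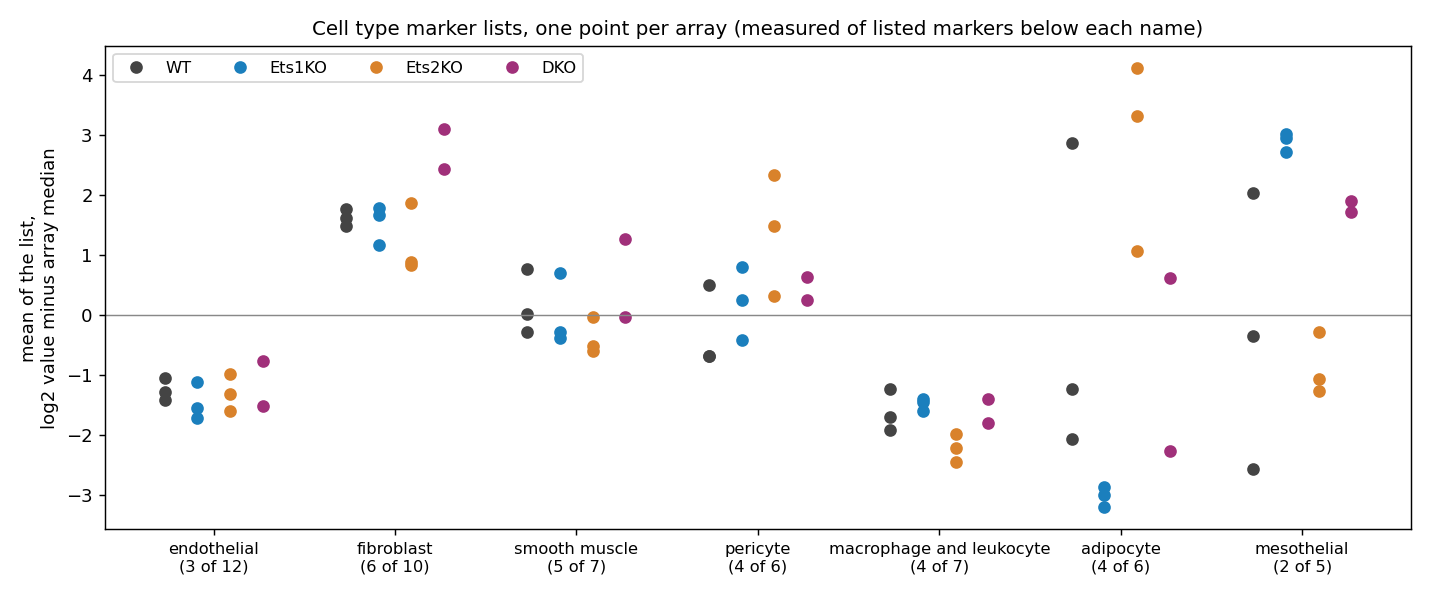
Mean relative log2 level of the measured markers (y axis) for each cell type list (x axis), a point per array coloured by group. Adipocyte markers are high on the Ets2KO arrays and WT array 3 and low in Ets1KO. The mean of the 2 mesothelial markers, which differ from each other, is high in Ets1KO, in DKO and on WT array 3. The fibroblast mean is highest in DKO.

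For the other marker lists, means of the 4 measured pericyte markers were 0.33 to 2.34 in Ets2KO and -0.68 to 0.80 on the other arrays. Its marker Rgs5 had group means of 3.31 in Ets2KO, -1.65 in WT, 0.51 in Ets1KO and -0.88 in DKO, highest where Itih5 and Dpt were. Cspg4 was also highest in Ets2KO (0.65). Pdgfrb and Notch3 were highest in DKO (2.62 and -0.14, against 2.36 and -0.79 in Ets2KO). Means of the 5 smooth muscle markers were -0.60 to 1.27 over all arrays. Acta2 of that list had group means of 0.21 in Ets2KO, 2.86 in WT, 2.62 in Ets1KO and 3.98 in DKO, lowest and highest where Lox was. On the DKO arrays it read 5.75 and 2.21, the latter below all WT arrays (2.22 to 3.58). Tagln, Des and Lmod1 were also highest in DKO by group mean, but lowest in Ets1KO or WT. Smtn was lowest in Ets2KO (1.15) and highest in Ets1KO (1.31). The part of these markers in the results was not tested. The 4 macrophage and leukocyte markers were between -2.44 and -1.23.

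By group means, Lox was highest in DKO, Prelp was higher in Ets1KO and DKO than in the other groups, and Dpt, Fbln1 and Itih5 were lowest in Ets1KO and DKO. Dpt and Itih5 were also highest in Ets2KO, where Fbln1 was near WT. After centring, the brightest probe sets of Dpt and Itih5 differed by a root mean square of 1.16 over the 11 arrays, Dpt and Fbln1 by 1.51, Fbln1 and Itih5 by 2.18, Lox and Prelp also by 2.18, and Lox and Itih5 by 4.11. In Ets1KO against WT, 6 of the 9 member probe sets had groups that did not overlap, where 18.7% of all probe sets did. None of the 9 passed an adjusted p of 0.05 (limma), where 0.00487% of all probe sets did, and 5 had an unadjusted p under 0.05, where 9.03% of all did. In Ets2KO against WT, 0 of the 8 probe sets other than that of Itih5 passed (limma), where 0.633% of all probe sets did, and 1 had an unadjusted p under 0.05, where 20.6% of all did. Because the members were chosen on these arrays, these shares are printed side by side and nothing is read from them. In DKO against WT, 1 of the 5 probe sets of Dpt, Fbln1 and Itih5 passed, where 36% of all probe sets did. As deposited all 5 passed as lower, where 46% of all probe sets were called lower.

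**Figure D4:**
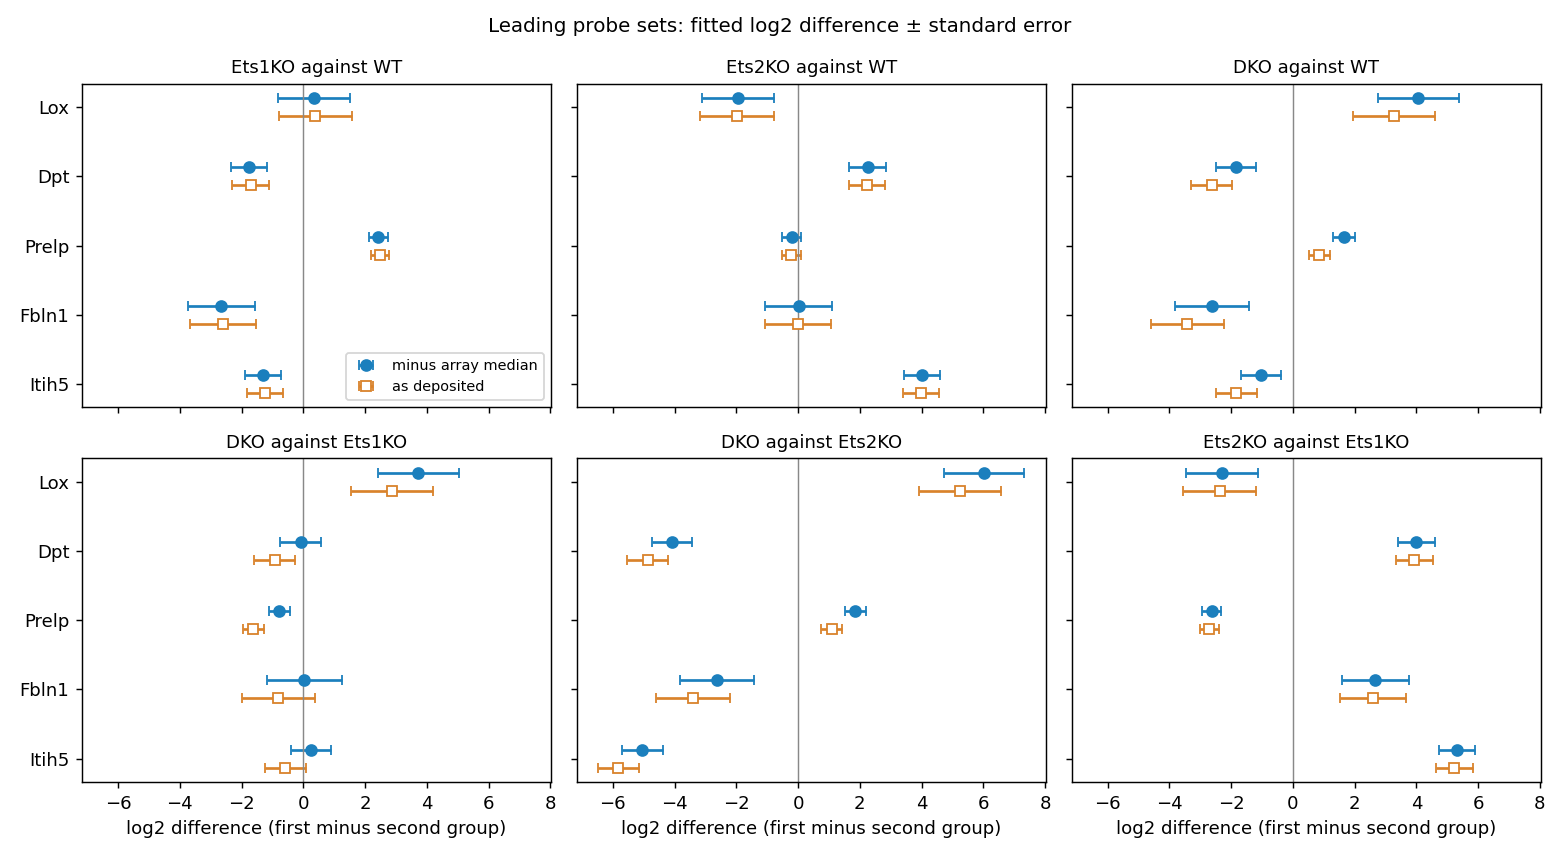
Fitted log2 difference (x axis) of the brightest probe set of each gene (y axis) in 6 comparisons, relative to array medians (filled circles) and as deposited (open squares), with bars for the standard error. The scales part most where DKO is compared with another group, and Lox in DKO against Ets2KO and Itih5 in Ets2KO against Ets1KO lie farthest to the right.

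Genes with related roles were read from 6 lists of matrix genes, 112 genes without the members, of which 79 were measured. They gave few calls where DKO was not compared, as did all genes together. In Ets1KO against WT, 0 of 79 passed (limma), where 0.00908% of all genes did, and 15 had an unadjusted p under 0.05, where 8.82% of genes did. The largest differences that did not pass were those of Pcolce2 (-3.14), a procollagen-processing enhancer, Ltbp2 (-2.82), Tnc (-2.75), Thbs2 (-2.55) and the hyaluronan synthase Has2 (-2.46), with limma adjusted p of 0.357 to 0.543. In Ets2KO against WT, 1 of 79 passed, where 0.545% of genes did: P4ha2, a collagen prolyl hydroxylase subunit, at -1.73 (SE 0.22, limma adjusted p 0.0267). No matrix gene passed there without WT array 2, Ets2KO array 1 or Ets2KO array 2, and 2 passed without WT array 3 or Ets1KO array 3. In Ets2KO against Ets1KO 4 of 79 passed, where 2.73% of genes did. Ltbp2, a latent TGF-beta binding protein of elastic fibres, was higher by 4.73, and the lysyl oxidase Loxl4, the transglutaminase Tgm2 and P4ha2 were lower by values of -1.35, -2.33 and -1.58. That count was 7 without WT array 3, 2 without Ets1KO array 1, 1 without Ets1KO array 3, Ets2KO array 1 or Ets2KO array 3, and 0 without Ets1KO array 2 or Ets2KO array 2.

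In DKO against WT, 11 of 79 matrix genes rose and 1 fell, where 31.7% of all genes passed, 20.7% as higher and 11% as lower. As deposited 4 rose and 13 fell, where 2.41% and 44% of genes did. The median difference of the 79 genes was 0.28 relative and -0.52 as deposited.

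Among lysyl oxidases and collagen-processing genes, 4 of 16 rose and none fell on the relative scale, with 12 that did not pass. As deposited 3 rose and 4 fell. The shares of all genes given above stand beside these counts and those of the lists below. P4ha2 read 0.77, 1.24 and 1.08 relative log2 in WT and 4.26 and 4.62 in DKO. The groups lay far apart, with a difference of 3.41 (SE 0.25, limma adjusted p 4.95e-05) and 2.61 as deposited. Tgm2, which cross-links matrix proteins, rose by 3.31 (limma adjusted p 0.00131), P4ha1 by 1.78 (limma adjusted p 0.00124) and Plod2, a collagen lysyl hydroxylase, by 1.73 (limma adjusted p 0.0209). Plod2 was 0.94 as deposited (limma adjusted p 0.127), so its call depends on the scale, and its other probe set gave 2.31 relative. Of the other Tgm2 probe sets 3 also passed as higher (1.44, 3.17 and 2.68) and 1 passed as lower (-0.98). The other P4ha1 probe set passed as lower (-1.89), so the gene has no agreed direction. The lysyl oxidases Loxl1, Loxl3 and Loxl4 differed from WT by -0.34, -0.62 and 0.28 and did not pass.

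Among elastic fibre and fibulin genes, 3 of 13 rose on the relative scale, and as deposited 1 rose and 3 fell. Eln, elastin, read -0.43, 1.05 and -1.13 in WT and 2.32 and 3.52 in DKO, but 3.49 on Ets1KO array 1. DKO lay above WT without overlap, by 3.09 (SE 0.95, limma adjusted p 0.032), and was not called as deposited (2.30, adjusted p 0.0731), and another Eln probe set gave -0.99. Emilin2, an elastin microfibril interface protein, rose by 1.90 (limma adjusted p 0.00152). Ltbp3 rose by 0.63 (limma adjusted p 0.0494) and was -0.17 as deposited, and its other probe sets gave -0.29, 1.29 and -0.61.

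Among hyaluronan genes, 2 of 11 rose and 1 fell on the relative scale, and as deposited none rose and 2 fell. Hyal2, a hyaluronidase, fell by 1.57 (limma adjusted p 0.00228) and by 2.37 as deposited. The hyaluronan receptor Cd44 rose by 0.80 and Ugdh, which makes a hyaluronan precursor, by 0.87, but as deposited these were 0.0013 and 0.08. Of the other Cd44 probe sets 1 passed as lower (-1.33) and 1 as higher (0.96), so Cd44 has no agreed direction. Of 7 small leucine-rich proteoglycans only Bgn passed (0.79, -0.0084 as deposited), and of 18 matrix glycoproteins only Fn1 (0.81, 0.02 as deposited). As deposited no gene of either list passed as higher, and 1 gene of each passed as lower. None of the 14 collagens passed at its brightest probe set in DKO against WT on the relative scale, and as deposited 2 passed as lower. Col1a2 came nearest among those named at 1.74 (limma adjusted p 0.0505). Another Col1a2 probe set passed as higher at 2.86 (limma adjusted p 0.0175), and a further one gave 1.96 (limma adjusted p 0.137).

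**Figure D5:**
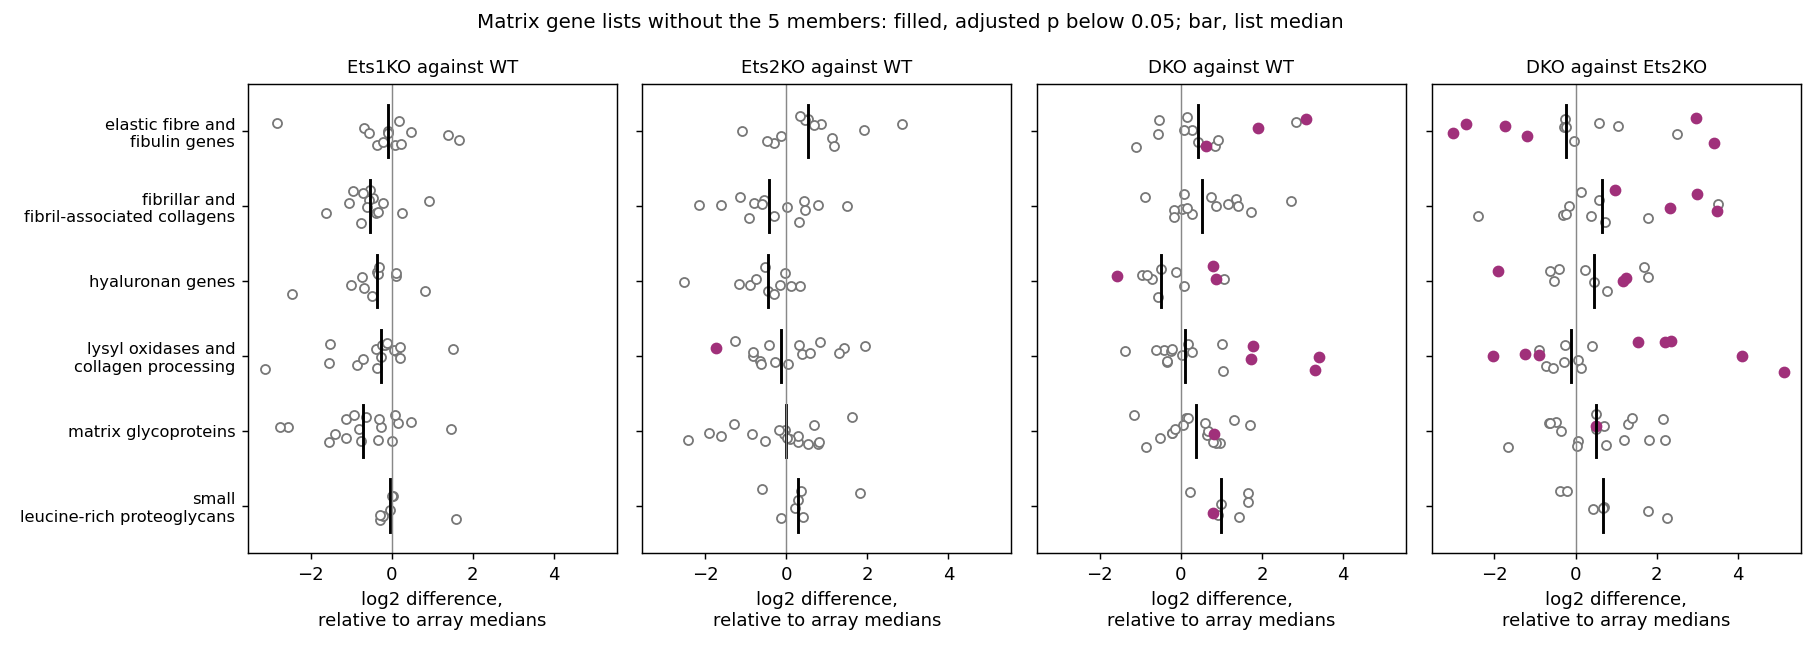
Difference in relative log2 level (x axis, log2 units) of the measured genes of the 6 matrix lists (y axis) in 4 comparisons, a point per gene, filled where the adjusted p is below 0.05, with a bar at each list's median. In DKO against WT 11 of 79 genes rose and 1 fell.

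In DKO against Ets2KO, 14 matrix genes rose and 8 fell of 79, where 32.8% of all genes passed in either direction, and as deposited 7 rose and 18 fell. The median difference over all genes was 0.20 relative and -0.57 as deposited. The share of all genes as deposited or by direction is not given here, so nothing is read from those counts. P4ha2 rose by 5.14, Tgm2 by 4.12, Eln by 3.41 and Emilin2 by 2.97 (limma adjusted p 8.85e-06, 0.000421, 0.0223 and 0.000162), and these 4 also passed as deposited. The other Eln probe set gave -0.70. Other Tgm2 probe sets gave 2.37, -0.46, 4.16 and 3.54, and those of Cd44 gave 1.35 and -0.77. Plod2 rose by 2.37 and P4ha1 by 2.21, while the other P4ha1 probe set passed as lower (-1.49). Among hyaluronan genes Cd44 rose by 1.25, Ugdh by 1.18 and Hyal2 fell by 1.92, of which only Hyal2 passed as deposited. Col1a1, Col5a2 and Col1a2 rose by 3.49, 3.01 and 2.33 (limma adjusted p 0.00256, 0.0233 and 0.0165), and Col5a2 and Col1a2 did not pass as deposited (2.23 and 1.56, limma adjusted p 0.0542 and 0.0603). Col5a3 rose by 0.97 and Fn1 by 0.51, and neither passed as deposited, where Fn1 was -0.26. Fbln7 and Ltbp2 fell by 2.70 and 3.02 (limma adjusted p 0.00837 and 0.0351). Col1a1 and Col1a2 also belong to the fibroblast list, whose mean was highest in DKO on the relative scale. In DKO against Ets1KO, 12 rose and 2 fell, where 32.7% of all genes passed, and as deposited 5 rose and 7 fell. Over all genes the median difference was 0.25 relative and -0.59 as deposited, and the same limit holds for these counts. P4ha2 rose by 3.56, Emilin2 by 2.58, Plod2 by 2.44, P4ha1 by 1.72 and Ugdh by 1.55, and Ltbp4 and Hyal2 fell by 1.94 and 1.27, all of which passed as deposited too. The other P4ha1 probe set passed as lower (-2.17). Tgm2 (1.79), Nid1 (1.61), Col16a1 (1.23), Cd44 (1.16), Sparc (0.90), Fn1 (0.81) and Bgn (0.75) rose on the relative scale and did not pass as deposited, where Fn1 and Bgn turned to -0.03 and -0.09. The other Tgm2 probe sets gave 0.02, -2.16, 1.77 and 1.26, of which -2.16 and 1.77 passed in opposite directions. Those of Cd44 gave 1.20 and -1.30, and both passed, so neither gene has an agreed direction. The count was 10 without DKO array 1 and 23 without DKO array 2.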

How the data were processed

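RNA of cultured mouse aortic endothelial cells was measured on expression arrays, 3 deposited columns in each of 4 groups. The deposited values are log2 intensities that the authors made with RMA, per the submitters' processing notes (version not given in the sources used here). Groups follow titles and genotypes, since some descriptions call null samples wild type. The third DKO column was left out because it equals the mean of the other two (tolerance 1e-05). Each array's median was subtracted, and limma 3.58.1 in R 4.3.3 (lmFit, eBayes) was fitted with 4 group means on 20523 probe sets. Benjamini-Hochberg adjustment was within each comparison over all probe sets, also for the lists. Each list gene, and each of the 11015 genes behind the shares of all genes, was read at its brightest probe set. The threshold was an adjusted p of 0.05. The script was tested on simulated data. Platform annotation gave 18824 probe sets a single symbol, 549 several and 1150 none here.

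All member probe sets are named. From each matrix list and comparison, up to 4 called genes without overlap between groups are named by largest difference, and where none was called up to 2, of which the text prints a part. Like profiles are the 3 genes with the smallest root mean square difference after centring, among probe sets brighter than the median. Other genes given were chosen after their values were seen. Members and lists were chosen with earlier results of these data known. Alternatives were the deposited scale, quantile normalization, another choice of probe sets, a filter on dim probe sets, a replicate block, the third DKO column, fits of only the groups compared, and each array left out. The number of arrays limits the precision. Figures were drawn with Python 3.11.15 and matplotlib 3.10.9.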

Additional observations from a re-analysis of the deposited data

Results flagged for a closer look

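For 13 matrix genes the change with Cre differed between the Ets1-null background (DKO against Ets1KO) and the Ets1+/+ background (Ets2KO against WT), by the interaction term of the limma fit with an adjusted p below 0.05. In all, 14 of 79 matrix genes passed, where 17.4% of all genes did, and up to 4 per list are named. Differences are in relative log2 units, the Ets1-null change minus the other. The collagen-processing genes P4ha2, Plod2, Tgm2 and P4ha1 had differences of 5.29, 3.07, 2.60 and 2.15. Another P4ha1 probe set was called in the opposite direction (-1.77), as was 1 of the other Tgm2 probe sets (-1.65). Among elastic fibre genes Emilin2 had 3.66, and Fbln7, Ltbp4 and Mfap2 had -3.18, -3.12 and -1.11. Another Mfap2 probe set was called in the opposite direction (1.07, limma adjusted p 0.0109), so Mfap2 has no agreed direction. The collagens Col1a1 and Col5a3 had 3.24 and 1.30. Among hyaluronan genes Ugdh and Cd44 had 1.86 and 1.61, and Hyal2 had -1.62, while 1 other Cd44 probe set gave -0.74. As deposited the terms of Cd44, Col5a3 and Tgm2 had adjusted p of 0.0608, 0.328 and 0.0638. These terms rest on the 2 arrays labelled DKO, of which leaving out the first left 9 genes called, and the groups held too few arrays for a check of single outlying arrays.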

How the results depend on the processing

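Of the members' differences under the alternatives, 1001 kept their direction and side of the threshold or moved by less than the spread. A further 16 moved, 13 gained and 9 lost a call, and 9 turned sign in a comparison given with a test. In comparisons without a test, other sign changes are counted among the 1001 or the 16. Among these in DKO against Ets1KO, Dpt ran from -0.93 to 0.44, Itih5 from -0.59 to 0.58 and Fbln1 1451119_a_at from -0.81 to 0.19. The Fbln1 interaction terms also changed sign. The 9 reversals were of small differences. For Fbln1 in Ets2KO against WT, 1451119_a_at gave -0.0035 as deposited and -0.84, -0.71 and -0.54 without WT replicate 3, Ets2KO replicate 2 or Ets2KO replicate 3, and 1422540_at gave -0.38, -0.29 and -0.23, with highest values of 1.30 and 1.0004 (without Ets2KO replicate 1). Lox in Ets1KO against WT gave -0.91 at both probe sets without WT replicate 1, and at most 1.15 and 1.11 (without WT replicate 2).

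The count of matrix genes called was 7 in DKO against WT and 9 in DKO against Ets1KO after quantile normalization. With 1 probe set per gene in the adjustment it was 7 in Ets2KO against Ets1KO. With a filter on dim probe sets it was 2 there and 9 for the interaction. With only the groups compared it was 0 in Ets2KO against WT, 7 in DKO against WT and 7 in Ets2KO against Ets1KO. With the third DKO column kept it was 7 in Ets2KO against WT, 23 in DKO against Ets1KO, 10 in Ets2KO against Ets1KO and 22 for the interaction. With single arrays left out the counts ran from 0 to 2 in Ets2KO against WT, 9 to 14 in DKO against WT, 10 to 23 in DKO against Ets1KO, 15 to 25 in DKO against Ets2KO, 0 to 7 in Ets2KO against Ets1KO and 9 to 20 for the interaction. The causes were not tested.

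Same-numbered arrays did not pair: 0 of 15 pairs deviated together with r over 0.1 (-0.306 to 0.0998). With the replicate block the Ets2KO against WT count was 0, and Fbln1 1422540_at in DKO against WT was -2.39 (limma adjusted p 0.0761). With 2 or 3 arrays a group, small differences could not be told from the spread.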
